A study of Homo sapiens with 3 samples.

Results

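NF-kappaB is a family of transcription factors that work as dimers of 5 subunits, encoded by NFKB1, NFKB2, RELA, RELB and REL. In resting cells IkB proteins hold the dimers in the cytoplasm, and signalling through IkB kinases releases them to the nucleus. Many of their target genes, among them NFKBIA, TNFAIP3 and BIRC3, encode proteins that restrain or tune the same pathway, so that their mRNA levels are widely used as a readout of its activity. In tumor cells of epithelial origin the pathway is known for inflammatory and survival genes.

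The 10 genes described here are these 5 subunits, the IkB genes NFKBIA and NFKBIE and the feedback or TNF-induced genes TNFAIP3, TNFAIP2 and BIRC3. They were chosen by symbol, matched to the Ensembl identifiers of a table of 58333 genes. All 10 were found, and all 10 were among the 20247 genes that passed a filter of 10 normalized counts in the mean over 6 libraries. A normalized count is the number of reads on a gene divided by the size factor of its library.

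Poly(A)+ RNA was sequenced from Cal62, a line labelled as thyroid cancer cells, after transfection with a negative control siRNA (siControl) or with 1 of 2 siRNAs against ADAR1, siADAR1 #1 (s1007) and siADAR1 #2 (119581). All cells shared the growth medium and the transfection reagent (Lipofectamine RNAimax), so the siControl libraries also come from transfected cells, and the time from transfection to lysis is not given in the sources used here. The study compared siControl with each siRNA to find the genes that follow ADAR1, an enzyme that edits adenosine to inosine in double-stranded RNA. Each transfection has 2 libraries, described in the study's methods as biologically independent.

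Between 30114840 and 50029763 reads were counted on genes per library, and 3 reads corresponded to 2.81 to 4.39 normalized counts. ADAR, the target, was at 10906 and 11701 normalized counts in the siControl libraries, at 1328 and 2246 with siADAR1 #1 and at 1663 and 2928 with siADAR1 #2. Its mean thus stood at 15.8% of siControl with siADAR1 #1 and at 20.3% with siADAR1 #2 (adjusted p = 0.00355 and 0.00153, limma). In each group replicate 2 had fewer reads than replicate 1 and a lower share of mitochondrial reads (5.18 and 3.92% with siControl, 5.43 and 4.28% with siADAR1 #1, 6.27 and 5.34% with siADAR1 #2). Of 8 thyroid markers 5 passed the filter, and NKX2-1 had no read in any library. The summed normalized count of the 8, mostly PAX8, was 14316 and 16130 with siControl, 10535 and 15233 with siADAR1 #1, and 2828 and 5717 with siADAR1 #2. Of the 5 that passed, PAX8, FOXE1 and SLC26A4 had a lower mean with siADAR1 #2 than with siControl, and TSHR and TG a higher one. All 5 epithelial markers passed, with sums between 67785 and 106204. Of 6 leukocyte markers 2 passed, CD3E had no read, and the sum, mostly CD68, was 301 and 455 with siControl, 549 and 739 with siADAR1 #1, and 823 and 1598 with siADAR1 #2. Of the 2 that passed, CD68 had a higher mean with siADAR1 #2 than with siControl (1181 against 331) and CD14 a lower one (26.2 against 39.7). The endothelial sum lay between 35.7 and 62.1. The fibroblast sum, mostly COL1A1, lay between 2810 and 6880 and was highest in the siControl libraries. Of the 2 fibroblast markers that passed, COL1A1 had a lower mean with each siRNA than with siControl and THY1 a higher one. All libraries come from the same cell line, so these sums are levels of marker genes in Cal62 cultures and do not count other cell types. In bulk RNA, fewer cells that express a gene and less RNA per cell cannot be told apart. The part of these differences in the values below was not tested.

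Promoters are shown for BIRC3, NFKBIA and TNFAIP3, inducible genes whose values differed widely among the libraries. RefSeq sequences of GRCh38.p14 gave a window of 250 bases before a transcription start for 8 of the 10 genes, and RELB and NFKBIE had none in the table. The kappaB consensus, a 10-base motif, was searched on both strands in 35116 such windows, of which 5.21% held a match. Of the 12 windows of the 8 genes, 7 held a match, which fell in 6 genes (NFKB1, NFKB2, REL, NFKBIA, TNFAIP3 and BIRC3). RELA and TNFAIP2 had none in these windows. TNFAIP2, whose values also differed widely (126 to 1698 normalized counts), is not shown. The windows shown therefore do not link a match with such differences. Matches are in capitals below, written 5′ to 3′ on the strand of the gene, and only bases outside annotated exons are given. A match describes these letters and does not show that a factor was bound in these cells. The BIRC3 window is chr11:102317234-102317483 (plus strand), NFKBIA is chr14:35404750-35404999 (minus strand), and TNFAIP3 is the first 205 bases of its window, chr6:137867009-137867213 (plus strand).
BIRC3: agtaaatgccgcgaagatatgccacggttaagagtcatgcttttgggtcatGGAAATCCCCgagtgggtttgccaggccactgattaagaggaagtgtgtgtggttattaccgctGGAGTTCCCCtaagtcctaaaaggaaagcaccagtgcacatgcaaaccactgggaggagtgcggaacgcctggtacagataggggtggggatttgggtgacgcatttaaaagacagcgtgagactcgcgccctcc
NFKBIA: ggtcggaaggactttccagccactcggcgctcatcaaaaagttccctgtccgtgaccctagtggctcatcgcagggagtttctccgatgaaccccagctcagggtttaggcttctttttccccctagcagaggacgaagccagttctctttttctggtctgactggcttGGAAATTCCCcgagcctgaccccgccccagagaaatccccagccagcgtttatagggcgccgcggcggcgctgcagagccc
TNFAIP3: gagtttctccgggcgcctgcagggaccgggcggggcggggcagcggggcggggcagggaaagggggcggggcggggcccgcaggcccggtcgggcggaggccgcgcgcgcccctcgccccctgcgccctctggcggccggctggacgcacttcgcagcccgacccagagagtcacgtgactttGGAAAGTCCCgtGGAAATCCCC

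The first bases of the BIRC3 matches lie 199 and 135 bases before the start, that of NFKBIA 81 bases before it, and those of TNFAIP3 67 and 55 bases before it.

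Levels of different genes were compared as normalized counts per kilobase of exon. In the siControl libraries RELA was highest, at 803 ± 78.4 (SD, n = 2), followed by NFKBIA at 396 ± 100, NFKB2 at 258 ± 28.9, NFKB1 at 253 ± 10.7 and BIRC3 at 128 ± 93.9. TNFAIP2 stood at 104 ± 9.8, NFKBIE at 70.5 ± 12, RELB at 66.4 ± 22, REL at 57.9 ± 0.844 and TNFAIP3 at 26.3 ± 10.1. The libraries of neighbours in this order overlapped for NFKB2 and NFKB1, BIRC3 and TNFAIP2, NFKBIE and RELB, and RELB and REL. With siADAR1 #1 BIRC3 reached 894 ± 924 per kilobase, and with siADAR1 #2 it was at 62.6 ± 47.9.

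**Figure D1:**
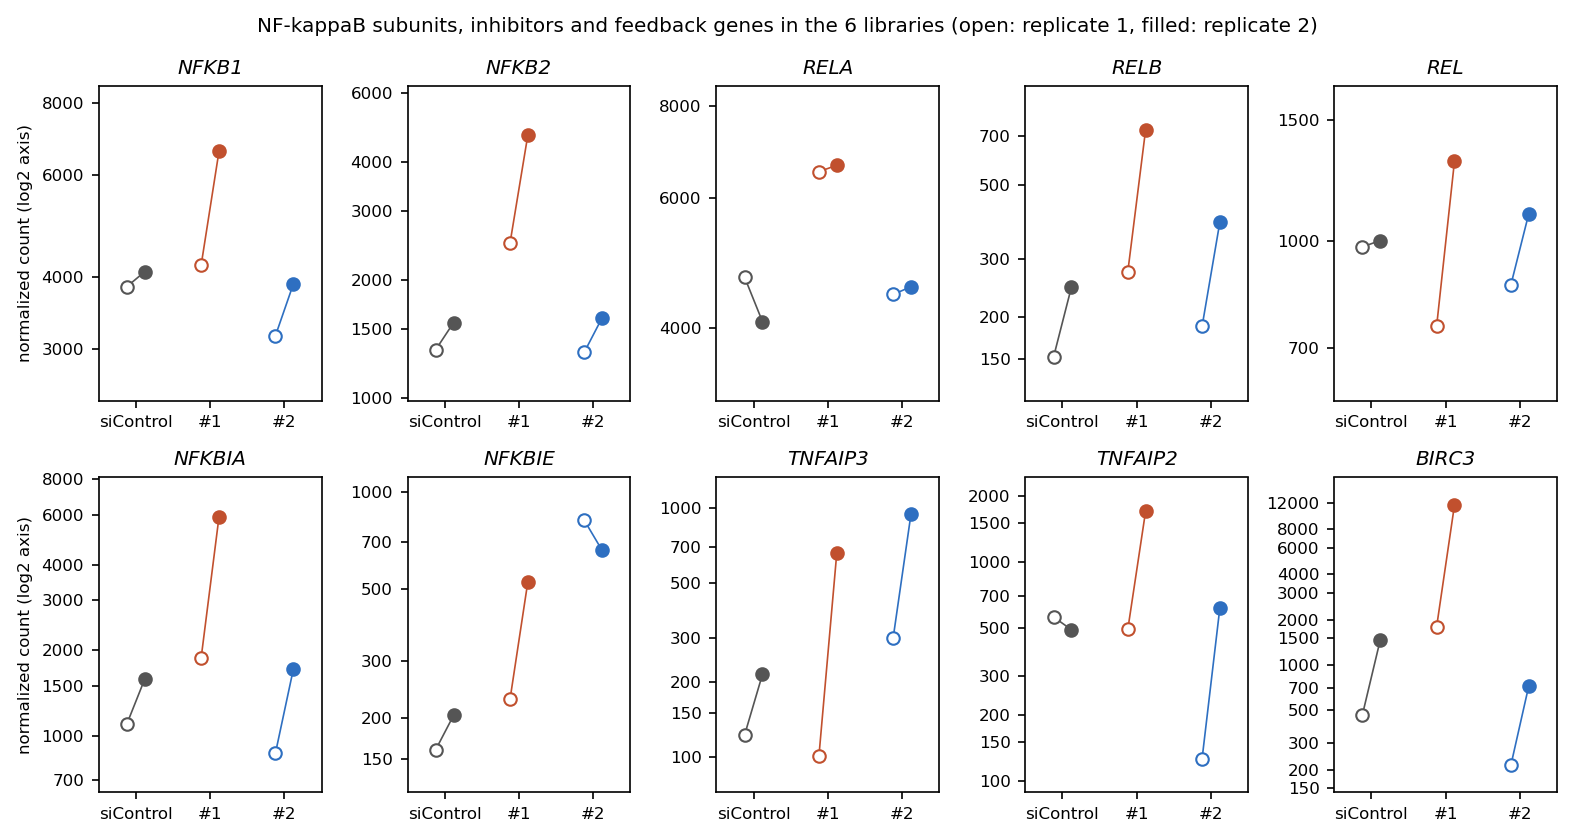
Normalized counts (log2 axis, one scale per panel) of the 10 genes in the 6 libraries, by transfection. Open circles are replicate 1, filled circles replicate 2, joined by a line, and a reader should see that for BIRC3 the order siADAR1 #1, siControl, siADAR1 #2 holds within each replicate number while the replicates of 1 group lie far apart.

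Changes against siControl were tested in a fit with 3 groups, and a gene was called when its adjusted p was below 0.05 and its log2FC beyond 0.5. Deviations of libraries with the same replicate number were weakly correlated (0.111 to 0.150 over all genes tested), and what a number marks is not stated. The call with the replicate number as a block is therefore given beside the other wherever it differs for these 10 genes. With siADAR1 #1, 2 of the 10 genes were called, NFKB2 and RELA, both higher, against 17.4% of all genes tested. With siADAR1 #2, 1 of 10 was called, NFKBIE, also higher, against 27.5% of all genes. With the block these counts became 5 of 10 (20.2% of all genes) and 3 of 10 (30.0%). When limma was run with the block but without a trend of the variance with expression, 0 of the 10 genes and 3 of all genes were called with siADAR1 #1 (6233 had an unadjusted p under 0.05). The median log2FC of the 10 genes was 0.87 with siADAR1 #1 and -0.01 with siADAR1 #2, beside -0.03 and -0.02 over all genes tested. Among all genes called with siADAR1 #1, 1293 rose and 2225 fell, and with libraries centred on their medians 1938 rose and 1723 fell, as centring moved the median of all genes from -0.03 to 0.11. Each of the 10 genes that was called against siControl kept its direction under centring and quantile normalization.

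NFKB2 encodes p100, the precursor of p52 and an inhibitor of RELB dimers (chr10:102394110-102402524). It had 1325 and 1553 normalized counts with siControl, 2481 and 4682 with siADAR1 #1, and 1306 and 1598 with siADAR1 #2. Both siADAR1 #1 libraries lay above all others, and the siADAR1 #2 and siControl libraries overlapped. It rose with siADAR1 #1 (log2FC 1.25, SE 0.28, adjusted p = 0.0211) and not detectably with siADAR1 #2 (log2FC 0.01, 95% interval -0.64 to 0.66). The siRNAs differed by -1.24 (siADAR1 #2 minus siADAR1 #1, SE 0.28, adjusted p = 0.0107). The siADAR1 #1 change was not called without siControl replicate 1 (log2FC 1.13, adjusted p = 0.139) or siControl replicate 2 (1.36, 0.0899), nor the difference without siADAR1 #2 replicate 1 (-1.09, 0.0658). Without siADAR1 #1 replicate 2 they were called but smaller, at 0.79 and -0.78, and without siADAR1 #1 replicate 1 they were 1.70 and -1.69.

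RELA encodes p65, the main activating subunit (chr11:65653599-65663090). Its normalized counts were 4683 and 4078 with siControl, 6513 and 6644 with siADAR1 #1, and 4439 and 4548 with siADAR1 #2. This gene had the closest replicates of the 10 with each siRNA, and the siADAR1 #1 libraries again lay above all others. It rose with siADAR1 #1 (log2FC 0.59, SE 0.11, adjusted p = 0.0135), a ratio of means of 1.5. With siADAR1 #2 the log2FC was 0.04 (95% interval -0.22 to 0.30), and the siRNAs differed by -0.55 (SE 0.11, adjusted p = 0.00765). The rise was not called without siControl replicate 1 (adjusted p = 0.0558), siControl replicate 2 (0.0733) or siADAR1 #1 replicate 1 (0.0586), nor the difference without siADAR1 #2 replicate 1 (0.0514). The difference was -0.46 after quantile normalization, short of the fold threshold. Without a trend of the variance neither NFKB2 nor RELA was called with siADAR1 #1 (adjusted p = 0.0821 and 0.0688).

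NFKB1, which encodes p105 and its product p50 (chr4:102501330-102617302), had 3852 and 4088 normalized counts with siControl, 4200 and 6606 with siADAR1 #1, and 3168 and 3889 with siADAR1 #2. The siADAR1 #1 libraries lay above the others, one of them by little. Neither change passed the test (log2FC 0.41 with siADAR1 #1, adjusted p = 0.225, and -0.18 with siADAR1 #2, adjusted p = 0.576). The difference between the siRNAs was -0.59 (adjusted p = 0.0637), and with the block it passed (adjusted p = 0.0155, range over the 18 settings tried 0.0095 to 0.282). That difference was -0.91 without siADAR1 #1 replicate 1 and -0.26 without replicate 2.

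RELB, the partner of p52 in the noncanonical pathway (chr19:45001461-45038192), was at 152 and 246 normalized counts with siControl, at 274 and 731 with siADAR1 #1, and at 188 and 387 with siADAR1 #2. Replicate 2 was the higher in each group, by 1.61, 2.67 and 2.05 times. The log2FC was 1.20 with siADAR1 #1 (SE 0.51, adjusted p = 0.146) and 0.47 with siADAR1 #2 (adjusted p = 0.53). Only with the block was the siADAR1 #1 change called (SE 0.22, adjusted p = 0.00827, range over settings 0.00738 to 0.525), as was the difference of -0.73 between the siRNAs (adjusted p = 0.0325, range 0.0318 to 0.978). With no block, the siADAR1 #1 change was 1.90 without siADAR1 #1 replicate 1 and 0.50 without replicate 2, and the difference ranged from -1.43 to -0.02 with 1 library of either siRNA left out.

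REL encodes c-Rel (chr2:60881491-60931612). It had 981 and 1002 normalized counts with siControl, 754 and 1306 with siADAR1 #1, and 865 and 1096 with siADAR1 #2. All 3 groups overlapped, and the mean with either siRNA was within 0.03 of siControl on the log2 scale (95% interval -0.59 to 0.60 with siADAR1 #1 and -0.62 to 0.57 with siADAR1 #2). Of its exonic length 33.3% is shared with an unnamed gene on the same strand, ENSG00000267520, which held 260 to 396 reads, so that its count is less certain than those of the other 9 genes, which share at most 1.89%.

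NFKBIA encodes IkB-alpha, the inhibitor that NF-kappaB itself induces (chr14:35401079-35404749, with the promoter window printed above). Its normalized counts were 1104 and 1586 with siControl, 1888 and 5896 with siADAR1 #1, and 872 and 1715 with siADAR1 #2. The siADAR1 #1 libraries lay above the other 4, but 3.12 times apart from each other. In the fit without a block neither siRNA passed (log2FC 1.33, SE 0.52, adjusted p = 0.119, and -0.11, adjusted p = 0.896). With the block the siADAR1 #1 change had an SE of 0.24 and passed (adjusted p = 0.00711, range over settings 0.00512 to 0.432). The difference between the siRNAs, -1.45, had an adjusted p of 0.0626, and of 0.0021 with the block (range 0.00184 to 0.287). Leaving out siADAR1 #1 replicate 1 or 2 in the fit with no block put the siADAR1 #1 change at 2.15 or 0.51 and the difference at -2.27 or -0.63, and the difference was -0.96 without siADAR1 #2 replicate 1. Within replicate 1 the siADAR1 #1 to siControl ratio was 1.71 and within replicate 2 it was 3.72.

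NFKBIE, which encodes IkB-epsilon (chr6:44258166-44265788), was the only one of the 10 called with siADAR1 #2 in the fit without a block. It had 160 and 204 normalized counts with siControl, 229 and 528 with siADAR1 #1, and 816 and 659 with siADAR1 #2. The 3 groups did not overlap, in the order siControl, siADAR1 #1, siADAR1 #2. It rose with siADAR1 #2 (log2FC 2.01, SE 0.37, adjusted p = 0.00569), a ratio of means of 4.05, and the rise was called in 17 of the 18 settings, the exception being without siControl replicate 1 (log2FC 1.83, adjusted p = 0.0584). With siADAR1 #1 the log2FC was 0.94 (SE 0.37, adjusted p = 0.119). The siRNAs differed by 1.07 (adjusted p = 0.0525), which passed with the block (adjusted p = 0.0289, range 0.00414 to 0.209), and was 0.47 without siADAR1 #1 replicate 1 and 1.67 without replicate 2.

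TNFAIP3 encodes A20, a ubiquitin-editing enzyme that shuts off NF-kappaB signalling (chr6:137867214-137883314). The normalized counts of this gene were 123 and 215 with siControl, 101 and 657 with siADAR1 #1, and 302 and 948 with siADAR1 #2. Both siADAR1 #2 libraries were above the siControl ones, whereas the siADAR1 #1 libraries lay on either side of them. The log2FC was 0.66 (SE 0.85, adjusted p = 0.639) with siADAR1 #1 and 1.70 (SE 0.85, adjusted p = 0.173) with siADAR1 #2. With the block the siADAR1 #2 change passed (SE 0.38, adjusted p = 0.011, range over settings 0.00697 to 0.561), and in the fit with no block it was 0.88 without siADAR1 #2 replicate 2. The ratio to siControl was 2.45 within replicate 1 and 4.4 within replicate 2. Its difference between the siRNAs, 1.04, did not pass with or without the block (adjusted p = 0.061 and 0.378, range 0.0326 to 0.89).

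TNFAIP2, a TNF-induced gene (chr14:103121476-103137439), had 559 and 489 normalized counts with siControl, 490 and 1698 with siADAR1 #1, and 126 and 617 with siADAR1 #2. All groups overlapped, with replicate 2 higher by 3.47 and 4.9 times under the siRNAs and lower under siControl. The log2FC was 0.80 (adjusted p = 0.511) with siADAR1 #1 and -0.90 (adjusted p = 0.418) with siADAR1 #2, and neither passed with the block (adjusted p = 0.288 and 0.202). The difference between the siRNAs was -1.70 (adjusted p = 0.118), and passed with the block (adjusted p = 0.026, range 0.0177 to 0.558). It ran from -2.83 without siADAR1 #2 replicate 2 to -0.56 without siADAR1 #2 replicate 1 in the fit with no block, and was -2.59 and -0.80 without siADAR1 #1 replicate 1 and 2.

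BIRC3 encodes cIAP2, a ubiquitin ligase that acts on RIPK1 and on NF-kappaB-inducing kinase (chr11:102317484-102339403, with the promoter window printed above). It had 463 and 1457 normalized counts with siControl, 1796 and 11580 with siADAR1 #1, and 215 and 722 with siADAR1 #2. Both siADAR1 #1 libraries were above the other 4, while siADAR1 #2 replicate 2 lay between the siControl libraries. Within replicate 1 siADAR1 #1 was 3.88 times and siADAR1 #2 0.466 times siControl, and within replicate 2 these ratios were 7.95 and 0.496. The fit without a block gave a log2FC of 2.47 with siADAR1 #1 (SE 0.93, adjusted p = 0.108) and of -1.05 with siADAR1 #2 (SE 0.93, adjusted p = 0.441), so neither was called. The block lowered the SE to 0.24, and BIRC3 then rose with siADAR1 #1 (adjusted p = 0.00139, range over settings 0.000866 to 0.443) and fell with siADAR1 #2 (adjusted p = 0.0128, range 0.0128 to 0.928). Single libraries moved these changes in the fit with no block. With siADAR1 #1 the log2FC was 1.65 without siControl replicate 1, 3.81 without siADAR1 #1 replicate 1 and 1.13 without siADAR1 #1 replicate 2. With siADAR1 #2 it was -1.88 and -0.23 without siControl replicate 1 and 2, and -0.19 and -1.92 without siADAR1 #2 replicate 1 and 2. The difference between the siRNAs was -3.52 (SE 0.93, adjusted p = 0.0207, and 9.33e-05 with the block, range 7.99e-05 to 0.151), the widest of the 10 genes. In the fit without a block it was not called without siADAR1 #1 replicate 2 (-2.18, adjusted p = 0.0863) or siADAR1 #2 replicate 1 (-2.66, adjusted p = 0.117), with robust eBayes (0.151) or with eBayes without trend (0.0724).

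**Figure D2:**
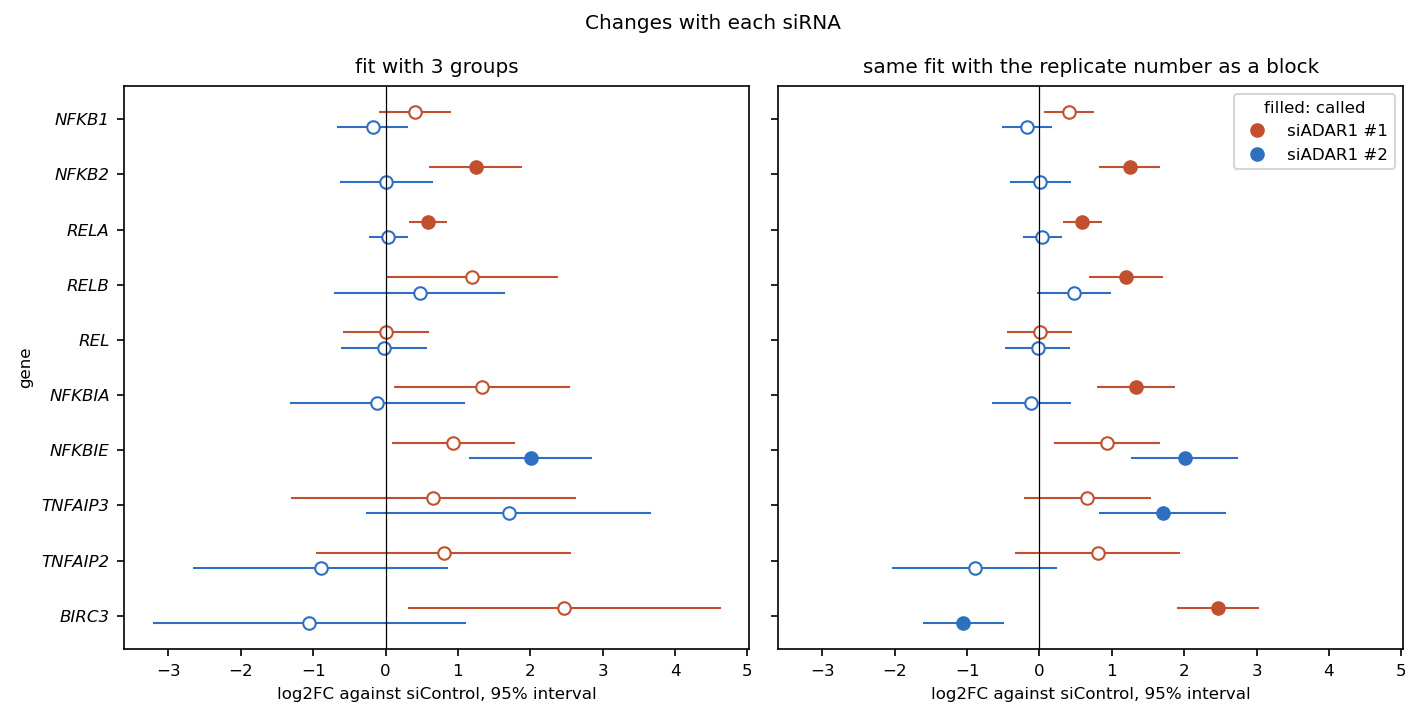
Log2FC of the 10 genes against siControl with siADAR1 #1 and siADAR1 #2 in the fit with 3 groups (left) and in the fit that has replicate number as a block (right). Lines are 95% intervals and filled circles are called genes, and the reader should see 2 filled circles for siADAR1 #1 and 1 for siADAR1 #2 on the left, and 5 and 3 on the right, with BIRC3 called in opposite directions.

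Compared directly, 3 of the 10 genes were called lower with siADAR1 #2 than with siADAR1 #1 (NFKB2, RELA and BIRC3) and 0 higher. Of all genes 33.7% were called in either direction, 3332 lower and 3498 higher. When replicate number was a term of the fit, 7 of the 10 were lower and 1, NFKBIE, was higher. Of all genes 35.8% were then called, 3537 lower and 3719 higher. The median difference of the 10 genes was -0.66, beside 0.01 over all genes tested. These calls depended on single libraries. With 1 library left out, the difference ran from -1.69 to -0.78 for NFKB2, from -0.57 to -0.53 for RELA and from -4.87 to -2.18 for BIRC3. Without siADAR1 #1 replicate 2 it was 1.67 for NFKBIE and 2.38 for TNFAIP3, both higher with siADAR1 #2. The changes from siControl share the siControl libraries, so they are given side by side and were not correlated. In a fit with both siRNAs as 1 group, the difference between the siRNAs counts as error. With or without the block it called 0 of the 10 genes and 0% of all genes tested, and so not ADAR, the target. Without the block, 2869 genes had an unadjusted p under 0.05 in limma. For the same comparison voom on the recovered reads called 1 gene and the mean of both log2FC values, taken from the 3-group model, called 3601, with 1 among the 10. NFKBIE had the smallest p of the 10 there (log2FC 1.47, adjusted p = 0.275), and the log2FC of the others ranged from -0.05 for TNFAIP2 to 1.18 for TNFAIP3.

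Differences between the replicates of 1 transfection were as large as those between transfections for several of these genes, and were examined after the values had been seen. Replicate 2 exceeded replicate 1 in all 3 groups for 7 of the 10 genes, all but RELA, NFKBIE and TNFAIP2, while 14.4% of the genes tested did so. BIRC3 differed by 3.15 times with siControl, 6.45 times with siADAR1 #1 and 3.35 times with siADAR1 #2. In the fit with the block, replicate 2 was above replicate 1 by 2.02 on the log2 scale for BIRC3 (SE 0.20, adjusted p = 0.0097). It was the 1 gene of the 10 called in that comparison, in which 0.138% of all genes were called, 25 higher and 3 lower in replicate 2. TNFAIP3 differed by 1.70 (adjusted p = 0.147), TNFAIP2 by 1.29 (0.398), NFKBIA by 1.05 (0.147) and RELB by 1.04 (0.134), and none of these 4 passed. RELA differed by -0.05 (0.925). Among the related genes listed below, CXCL8 and LTB, picked here for being called in it, were also higher in replicate 2. CXCL8, an inflammatory chemokine, had 57.7 and 266 normalized counts with siControl, 217 and 2269 with siADAR1 #1, and 89.6 and 1022 with siADAR1 #2. Depth and the mitochondrial share moved with the replicate number in each group, and their part in this was not tested.

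**Figure D3:**
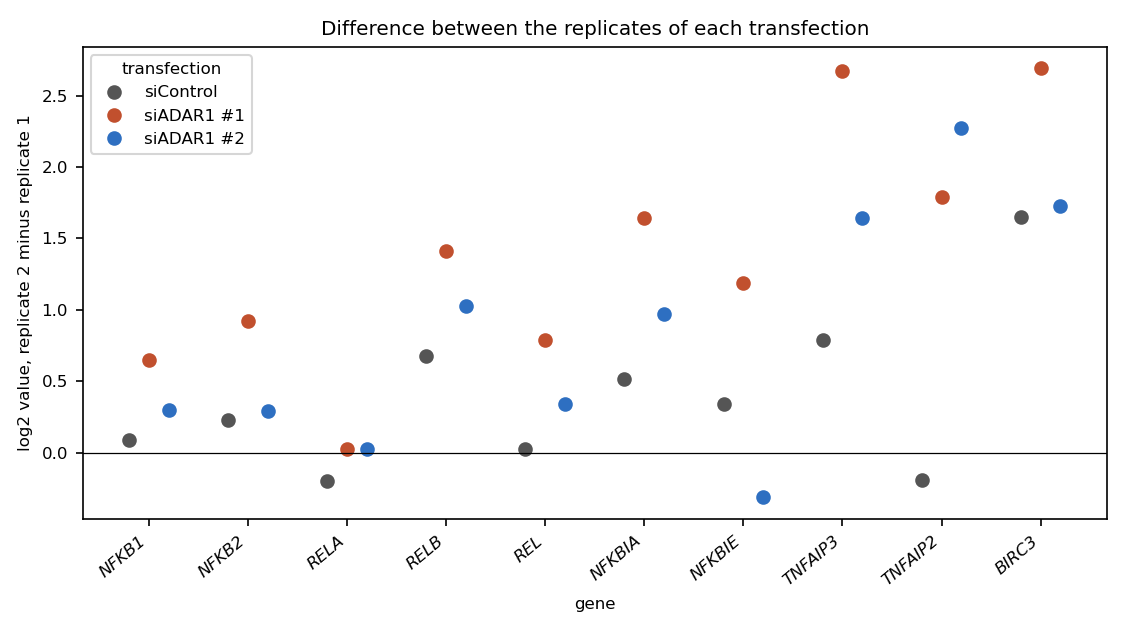
Log2 value in replicate 2 minus replicate 1 (vertical axis) for each of the 10 genes (horizontal axis) in each transfection (colors). Points above the line at 0 were higher in replicate 2, and the reader should see all 3 points above it for 7 genes, with the 3 BIRC3 points at 1.65, 2.69 and 1.73.

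Other genes of the pathway were taken from 5 lists of 71 genes, of which 66 were tested. With siADAR1 #1, 4 of the 66 rose and 4 fell, and with siADAR1 #2, 6 rose and 7 fell (17.4% and 27.5% of all genes were called in either direction). The block gave 13 and 4 with siADAR1 #1 and 12 and 7 with siADAR1 #2 (20.2% and 30.0% of all genes). Between the siRNAs 11 were higher and 10 lower with siADAR1 #2, and 11 and 14 with the block (33.7% and 35.8% of all genes were called in either direction). The medians over the 66 genes were 0.11 and 0.06.

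Among the 4 other IkB proteins, NFKBIZ, a nuclear co-regulator, rose with siADAR1 #2 (log2FC 0.94, adjusted p = 0.0296) and passed with siADAR1 #1 in the block only (log2FC 0.79, adjusted p = 0.00655, and 0.0731 without the block). BCL3, a partner of p50 and p52, fell with siADAR1 #2 (log2FC -1.81, adjusted p = 0.00841) and had a log2FC of -0.03 with siADAR1 #1. It went from 205 and 142 normalized counts with siControl to 34 and 64.4 with siADAR1 #2. NFKBIB (0.52 and -0.12) and NFKBID (0.07 and -0.63) did not pass with either siRNA.

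Of the 10 kinases and their partners, 1 fell with each siRNA and none rose (17.4% and 27.5% of all genes were called in either direction). TAB1, which activates the kinase TAK1, fell with siADAR1 #1 from 1404 and 1386 normalized counts to 391 and 510 (log2FC -1.64, adjusted p = 0.00299), and had a log2FC of -0.26 with siADAR1 #2. MAP3K7, which encodes TAK1, was the one that fell with siADAR1 #2. The IkB kinase gene IKBKB (-0.21 and 0.15), TBK1 (-0.40 and 0.31) and MAP3K14, the NF-kappaB-inducing kinase (0.33 and -0.38), did not pass against siControl. TBK1 was higher with siADAR1 #2 than with siADAR1 #1 (0.72, adjusted p = 0.00409) and MAP3K14 lower (-0.70, adjusted p = 0.0241).

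Of the 17 adaptors and ubiquitin ligases, 1 fell with siADAR1 #1, and 1 rose and 2 fell with siADAR1 #2. Over all genes 17.4% and 27.5% were called in either direction. IRAK1, a kinase of Toll-like and interleukin-1 receptor signalling, fell with siADAR1 #1 from 15486 and 18075 normalized counts to 2437 and 5580 (log2FC -2.18, adjusted p = 0.00663). It was at 9778 and 11273 with siADAR1 #2, which did not pass (log2FC -0.67, adjusted p = 0.168), and the siRNAs differed (1.51, adjusted p = 0.00971). TRAF2 (0.37 and -0.25), TRAF3 (-0.27 and 0.41) and TANK (0.24 and -0.22) did not pass with either siRNA. The genes called with siADAR1 #2 were RBCK1, which rose, and RIPK1 and MALT1, which fell. The block added BCL10 with siADAR1 #1 (log2FC 0.52, adjusted p = 0.0304) and TRADD with siADAR1 #2 (log2FC 0.56, adjusted p = 0.0496), both higher.

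Of the 12 negative regulators, NKIRAS1, which encodes an IkB-interacting Ras-like protein, rose with both siRNAs (log2FC 1.32, adjusted p = 0.00557, and 0.63, adjusted p = 0.0397). Its exons share 22.2% of their length with UBE2E1 and 6.11% with RPL15, both on the opposite strand. RPL15 held 19584 to 30523 reads beside 251 to 816 on NKIRAS1, and whether counting used strand is not stated. COMMD1, which promotes the degradation of RELA, fell with siADAR1 #1 (log2FC -1.27, adjusted p = 0.00644) and had a log2FC of -0.50 with siADAR1 #2 (adjusted p = 0.0828). It shares 33.6% of its exonic length with RPSAP26, which held 5 to 25 reads. PDLIM2 also fell with siADAR1 #1. TAX1BP1, a partner of A20, rose with siADAR1 #2 (0.75, adjusted p = 0.00884), and the ubiquitin ligase ITCH fell (-1.03, adjusted p = 0.00176). ITCH shares 23.4% of its exonic length with ENSG00000289720 on the same strand.

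The 28 other target genes, of which 23 were tested, had the highest median of the 5 lists, at 0.77 with siADAR1 #1 and 0.51 with siADAR1 #2. PLAU, the urokinase plasminogen activator, moved in opposite directions. It had 132202 and 110938 normalized counts with siControl, 264478 and 334324 with siADAR1 #1, and 40442 and 51273 with siADAR1 #2. It rose with siADAR1 #1 (log2FC 1.30, adjusted p = 0.00434) and fell with siADAR1 #2 (log2FC -1.41, adjusted p = 0.0011), and the siRNAs differed by -2.71 (adjusted p = 0.000173). Of its exonic length 31% is shared with C10orf55 on the opposite strand. CFLAR, an inhibitor of caspase-8 activation, rose with siADAR1 #1 (0.59, adjusted p = 0.0254), and its log2FC with siADAR1 #2 was 0.33. TRAF1 (0.87 and 1.25) and CCL20 (1.15 and 1.24) did not pass in the fit without a block, and with it TRAF1 passed with siADAR1 #2 (adjusted p = 0.0199). In all, 3 of the 23 rose with siADAR1 #1 (PLAU, CFLAR and CD83), and 10 did so with the block, where 20.2% of all genes were called in either direction. The block added ICAM1, CXCL2, CXCL8, TNF, CSF2, LTB and IL32. Of these added genes, ICAM1, CXCL2, CXCL8 and LTB had siADAR1 #1 libraries that overlapped the siControl ones, and TNF had only 2 and 20 reads with siControl. With siADAR1 #2 the calls were IL6 and PTX3, which rose, and IER3 and PLAU, which fell, and 7 rose with the block, which added CXCL2, CXCL8, TRAF1, LTB and SDC4 (30.0% of all genes were called). The siADAR1 #2 libraries of CXCL2, CXCL8 and LTB overlapped the siControl ones. Replicate 2 was above replicate 1 in all 3 groups for 13 of the 23 target genes, for 8 of the 17 adaptors, and for none of the 10 kinases or the 12 negative regulators. Over all genes tested this held for 14.4%. It was below replicate 1 in all 3 groups for 1 target gene, 2 adaptors and 3 negative regulators, and for 3225 of all 20247 genes tested.

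**Figure D4:**
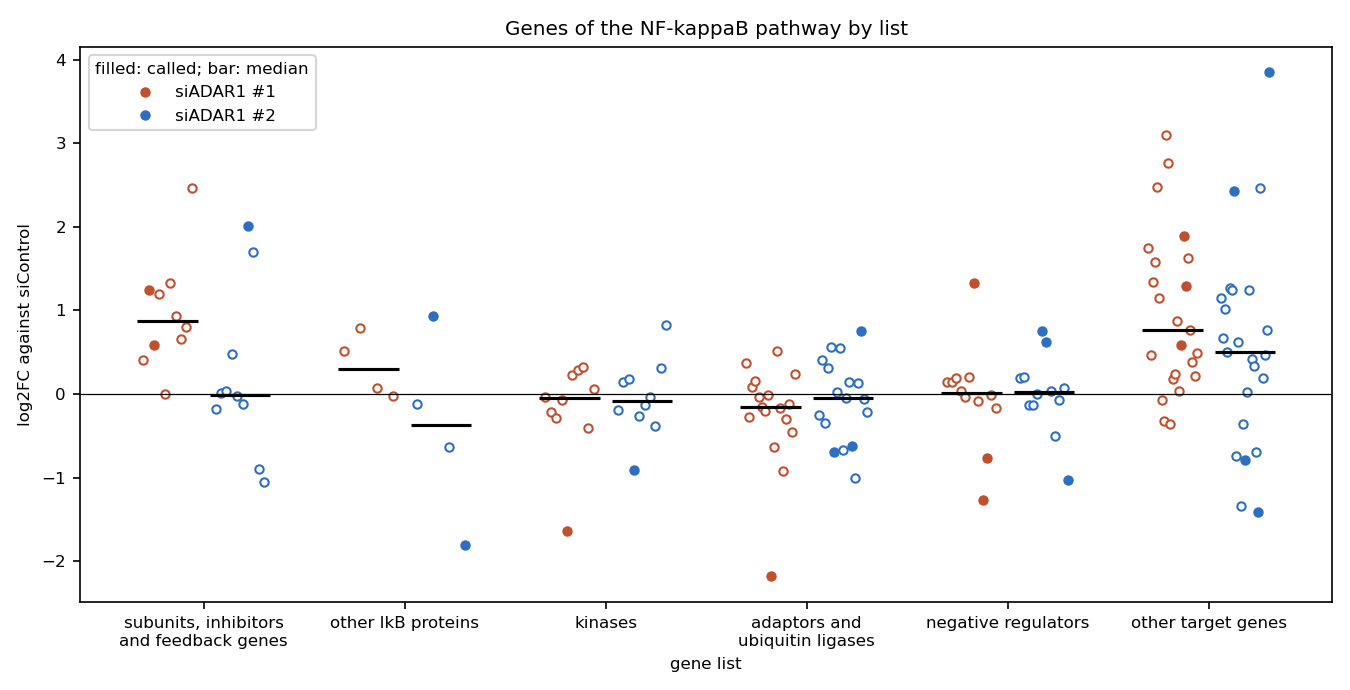
Log2FC against siControl (vertical axis) of the 10 genes and of the tested genes of the 5 lists (horizontal axis) with each siRNA, from the fit with 3 groups. Filled circles are called genes and bars are medians, and the reader should see the median of the 10 genes at 0.87 with siADAR1 #1 and at -0.01 with siADAR1 #2, while the medians of the kinases, adaptors and negative regulators lie between -0.15 and 0.02.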

How the data were processed

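Poly(A)+ RNA of Cal62 cells was sequenced as 2 libraries for each of 3 transfections. The labels give 1 sample per transfection, and its 2 columns were taken as the replicates of the study's methods. The p-values thus rest on the spread between these libraries, which eBayes combined with the spread of other genes. The submitters' processing notes name FastQC, featureCounts, Salmon and GRCh38, and per the paper's methods the authors normalized with DESeq2. The deposited values are log2 values of a variance-stabilizing transformation. Its inverse, found from the lowest value (0.347736 in all 6 libraries), gave whole reads for 100.0% of values within 0.1, with 30114840 to 50029763 reads per library.

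The log2 values of 20247 genes with a mean of at least 10 normalized counts entered limma (version 3.58.1, R 4.3.3, lmFit and eBayes with trend, two-sided tests, Benjamini-Hochberg over all genes tested). The fit with 3 groups had 3 residual degrees of freedom, 2 with the replicate block, and the fit with both siRNAs as 1 group had 4. With what eBayes took from other genes, the median totals were 7.6, 7.9 and 6.7. Genes were called at adjusted p below 0.05 and log2FC beyond 0.5. The steps of the fit with 3 groups were tested on simulated data. The simulation gave all genes the same small dispersion and no difference by replicate number, and the block was not run on it. It therefore cannot judge calls made with the block or for genes whose replicates lie far apart.

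Whether the replicate numbers pair the libraries was judged from the same data alone, as the labels do not say what a number marks. The difference of replicate 2 from replicate 1 under siControl had a correlation of 0.111 with that under siADAR1 #1 and of 0.130 with that under siADAR1 #2, and the correlation was 0.150 for the pair of siRNAs, over 20247 genes that are not independent replicates. 

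The 10 genes and the 5 lists were chosen with earlier results of these data known. From each list the 4 tested genes with the smallest value of the larger of their adjusted p-values with the 2 siRNAs were named, and others named were chosen after their values were seen. The rule also named genes with patterns like a gene of the 10 called the same way with both siRNAs, and there was none. SOD2, on a list, was not matched by symbol. Gene lengths and positions are from GENCODE release 44. Alternatives were no filter or a filter at 50 normalized counts, median-centred or quantile-normalized libraries, eBayes without trend or robust, the replicate block, voom on the recovered reads, fits with 4 libraries, the average of the siRNA changes, and each library left out. Combinations of the block with voom, with eBayes without trend and with the average, and the comparison of the replicates, were added after the values were seen.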

Additional observations from a re-analysis of the deposited data

Results flagged for a closer look

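The changes from siControl differed between the siRNAs, by the test of siADAR1 #2 against siADAR1 #1 in limma, for 3 of the 10 genes, against 33.7% of all genes tested. These were NFKB2 (-1.24, adjusted p = 0.0107), RELA (-0.55, adjusted p = 0.00765) and BIRC3 (-3.52, adjusted p = 0.0207). In each of the 3, picked by that test, both libraries of siADAR1 #2 were below both of siADAR1 #1. The share of all genes with such an order was not counted. With 2 libraries per group no library could be tested for standing apart.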

How the results depend on the processing

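Precision was limited by the 2 libraries per group, and voom, which weights by depth, called 2, 1 and 4 of the 10 genes with siADAR1 #1, with siADAR1 #2 and between the siRNAs. Over all 20247 genes tested it called 3702, 5666 and 6912. The replicate block raised the calls among the 10 genes to 5 with siADAR1 #1, 3 with siADAR1 #2 and 8 between the siRNAs (20.2%, 30.0% and 35.8% of all genes). With voom and the block these counts were also 5, 3 and 8, beside 4261, 6121 and 7427 of all genes tested. Where it is not named in the text, the block changed no call among the 10 genes. With a variance trend it moved no count over all genes by more than 1.5 times. Without a variance trend, siADAR1 #1 had 1478 genes called and 0 of the 10, and 3 genes and 0 of the 10 with the block. The comparison of the replicates then had 0 genes (1548 at an unadjusted p under 0.05) and 0 of the 10, and with voom 48 genes. The 4 libraries of the groups compared gave 2 of the 10 with siADAR1 #2, beside 5755 of all 20247 genes. Between the siRNAs the count of the 10 was 6 with the filter at 50 normalized counts (6082 of all 14299 genes) and 5 with median-centred libraries (7044 of all 20247 genes). With both siRNAs as 1 group, 4 genes were called without trend (0 with the block, 2252 at an unadjusted p under 0.05), 1 with voom, 3601 by the average of the siRNA changes (1 of the 10), and 4077 by the average with the block (5 of the 10). Unlike the fit with both siRNAs as 1 group, the average does not count the difference between the siRNAs as error. The cause of these shifts was not tested.

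Leaving out 1 library, where a group left with 1 library was assumed to vary like the others, gave 312 to 3596 genes and 0 to 4 of the 10 with siADAR1 #1 (312 without siControl replicate 1, 1165 without siControl replicate 2, 1291 without siADAR1 #1 replicate 1), 3105 to 5743 genes and 0 to 2 of the 10 with siADAR1 #2 (3105 without siADAR1 #2 replicate 1, 3152 without siControl replicate 1) and 0 to 5 of the 10 between the siRNAs. Directions turned for changes that had not passed. With siADAR1 #1 REL was -0.0252 with voom, and it ranged from -0.39 to 0.40, TNFAIP3 from -0.68 to 2.00 and TNFAIP2 from -0.0920 to 1.70 with a library left out. With siADAR1 #2 REL was 0.011 after median-centring and 0.12 after quantile normalization, which put NFKBIA at 0.0313, and the ranges were -0.14 to 0.16 for NFKB2, -0.60 to 0.37 for NFKBIA, -0.20 to 0.14 for REL, -0.0595 to 0.14 for RELA, -0.0404 to 0.99 for RELB and -2.03 to 0.24 for TNFAIP2. Between the siRNAs they were -0.42 to 0.37 for REL and -0.29 to 2.38 for TNFAIP3. With both siRNAs as 1 group REL was 0.0772 and 0.14, and TNFAIP2 0.0420 and 0.0465, after median-centring and quantile normalization, TNFAIP2 was 0.0868 with voom and the block, and the ranges were -0.33 to 1.58 for BIRC3, -0.0906 to 0.26 for NFKB1, -0.15 to 0.12 for REL and -0.63 to 0.61 for TNFAIP2.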
